A study of Mus musculus with 2 samples.

Results

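The cathepsins are the main proteases of the lysosome, and 10 of their genes (Ctsa, Ctsb, Ctsc, Ctsd, Ctse, Ctsh, Ctsk, Ctsl, Ctss and Ctsz) were followed here, of 32285 genes in the count tables. They were taken by gene symbol. Single-cell RNA was counted in lung cells from 2 groups of mice, with 1 library per genotype. The controls carried floxed Cebpa alleles (Cebpa fl/fl, labelled FF). The other mice carried the same alleles plus a tamoxifen-inducible Cre driven by Sftpc, a gene of alveolar type 2 (AT2) cells (Cebpa ΔSftpc, labelled KO). By the study's methods, tamoxifen was injected at 75 mg/kg on 5 consecutive days and lungs were taken 26 weeks after the first injection. The methods also give a further round of tamoxifen, injected weekly, for mice analysed over 3 months past the first round. The mice were of mixed background and 3 months old unless stated otherwise, and 3 mice per genotype are given. No barcode can be traced to 1 of these mice. The labels speak of live cells sorted after digestion and the methods of whole-lung suspensions, so a share of cells below is a share of the cells in a library.

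Most cathepsins are made as inactive precursors, carried to the lysosome and activated there at acid pH. Ctsb, Ctsc, Ctsh, Ctsk, Ctsl, Ctss and Ctsz encode cysteine proteases, Ctsd and Ctse aspartic proteases, and Ctsa a serine carboxypeptidase that also stabilizes other lysosomal enzymes. In the lung, cathepsin H takes part in the maturation of surfactant protein B in AT2 cells. Cathepsin S cuts the invariant chain from major histocompatibility complex (MHC) class II in antigen-presenting cells, cathepsin K is a strong collagenase, and cathepsin C activates the serine proteases of neutrophils and cytotoxic lymphocytes.

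Levels below are counts of unique molecular identifiers (UMIs) summed over the cells of a class in a library, given as counts per 1e6 UMIs of those cells (CPM). Each UMI stands for 1 captured RNA molecule tagged at its 3′ end, so levels were not divided by gene length. The 95% intervals (exact Poisson for levels, exact binomial for shares and ratios) cover counting error only. With no replicate of either genotype, nothing was tested between them, and differences are described by size, with 2-fold as the mark. The FF library kept 11487 cells with 68802017 UMIs and the KO library 13238 cells with 64452208 UMIs, and 45 barcodes occurred in both. Cebpa itself stood at 155 CPM in FF and 134 CPM in KO AT2 cells, with overlapping intervals of 147 to 163 and 115 to 156. The position of the loxP sites relative to the tagged 3′ end is not given in the sources used here, so these UMIs do not show whether the allele was recombined, and "KO library" means the library labelled KO throughout.

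Cells were classed by raw counts of marker genes, none of them a cathepsin, and cells that passed the gates of 2 lineages were left out of the classes. These were 569 cells in the FF and 2138 cells in the KO library. Among them, 287 and 544 passed an epithelial gate, and 0 and 657 the neutrophil gate. The neutrophil markers include S100a8 and S100a9, which the paper reports as raised in AT2 cells of the KO mice. AT2 cells high in these genes could therefore be left out of the AT2 class. The classes differed in size and depth. AT2 cells numbered 446 in the FF and 205 in the KO library, with medians of 20781 and 1514 UMIs per cell. Alveolar macrophages numbered 3 and 433, dendritic cells 4 and 80, and interstitial macrophages 23 and 128. A class was compared between libraries only with at least 20 cells in each, so alveolar macrophages and dendritic cells are described in the KO library. Surfactant genes and Lamp3 led the AT2 class in both libraries, C1qa, C1qb and C1qc the interstitial macrophages, and Chil3, Plet1 and Ear1 the KO alveolar macrophages.

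Ctsk and Ctss are neighbours in the mouse genome. In GENCODE M21 on GRCm38, Ctsk lies at chr3:95499256-95509362 and Ctss at chr3:95526786-95556403, both on the plus strand and 17.4 kb apart. Their levels over the cell classes differed, as described below, and the 250 bases before each RefSeq start (GRCm38.p6, plus strand) are shown to let these neighbours be compared. Neither stretch holds the letters CACGTG, an E-box that regulators of lysosomal genes can bind.
Ctsk, chr3:95498960-95499209: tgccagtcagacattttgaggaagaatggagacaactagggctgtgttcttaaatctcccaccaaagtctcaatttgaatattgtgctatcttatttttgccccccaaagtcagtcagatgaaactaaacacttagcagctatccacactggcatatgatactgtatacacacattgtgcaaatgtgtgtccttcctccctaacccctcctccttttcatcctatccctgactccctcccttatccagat
Ctss, chr3:95526536-95526785: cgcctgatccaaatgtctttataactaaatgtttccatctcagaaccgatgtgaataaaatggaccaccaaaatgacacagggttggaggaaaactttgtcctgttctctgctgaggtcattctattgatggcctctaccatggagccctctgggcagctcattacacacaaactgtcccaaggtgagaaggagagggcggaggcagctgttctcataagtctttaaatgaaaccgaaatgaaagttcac
RefSeq promoter windows, from 250 bases before to 50 after the start, were at hand for 7 of the 10 genes, with 8 windows in all, and not for Ctsb, Ctse and Ctsh. CACGTG, which reads the same on both strands, occurred in 3 of these 8 windows, those of Ctsd, Ctsl and 1 of the 2 of Ctsa. For Ctsl and this Ctsa window, the 250 bases before the RefSeq start lie inside the gene as GENCODE M21 gives it. For Ctsd they lie partly inside it. It occurred in 7.15% of all 32851 windows. The longer form TCACGTGA, which contains it, occurred in 2 of the 8 windows and in 0.974% of all.

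Over all cells, the 10 genes together stood at 1545 CPM in the FF library and 2175 CPM in the KO library, a log2 ratio (KO over FF) of 0.49 (0.48 to 0.51). Ctss differed most, at 11.8 and 331 CPM. Ctse stood at 0.145 and 2.59 CPM on 10 and 167 UMIs. Ctsk stood at 16.0 and 52.1 CPM. These 3 genes were the ones higher by 2-fold or more, against 9.52% of all genes tested, and 0 of the 10 were lower by 2-fold or more, against 10.0% of all genes. Ctsd stood at 314 and 583 CPM, Ctsa at 73.3 and 128 CPM, Ctsz at 132 and 195 CPM and Ctsb at 225 and 329 CPM. The AT2-rich Ctsh was lower in the KO library, at 232 and 141 CPM (log2 −0.72, −0.76 to −0.69), as was Ctsl, at 392 and 271 CPM (log2 −0.53, −0.56 to −0.51). Ctsc stood at 149 and 143 CPM (log2 −0.06). The ratios of Ctsh and Ctsc differed when every cell counted equally, at 0.0029 and 0.46, and when every cell was thinned to 1000 UMIs, at −0.08 and 0.44. The median log2 ratio was 0.69 over the 10 genes and −0.08 over all genes tested.

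The cells that held these UMIs differed between the libraries. AT2 cells gave 65.8% of all Ctsh UMIs and 62.8% of all Ctsc UMIs in the FF library, but 16.1% and 8.35% in the KO library. AT2 cells held 13% and 1.99% of all UMIs of the 2 libraries. Macrophages, alveolar and interstitial together, held 0.127% of all UMIs in the FF and 7.42% in the KO library. In the KO library they gave 61.7% of the Ctsk UMIs, 47.5% of Ctss, 45.2% of Ctsd and 33.1% of Ctsc. In the FF library, the same cells gave 0 of 1103 Ctsk UMIs, 20.6% of Ctss, 0.134% of Ctsd and 0.915% of Ctsc.

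**Figure D1:**
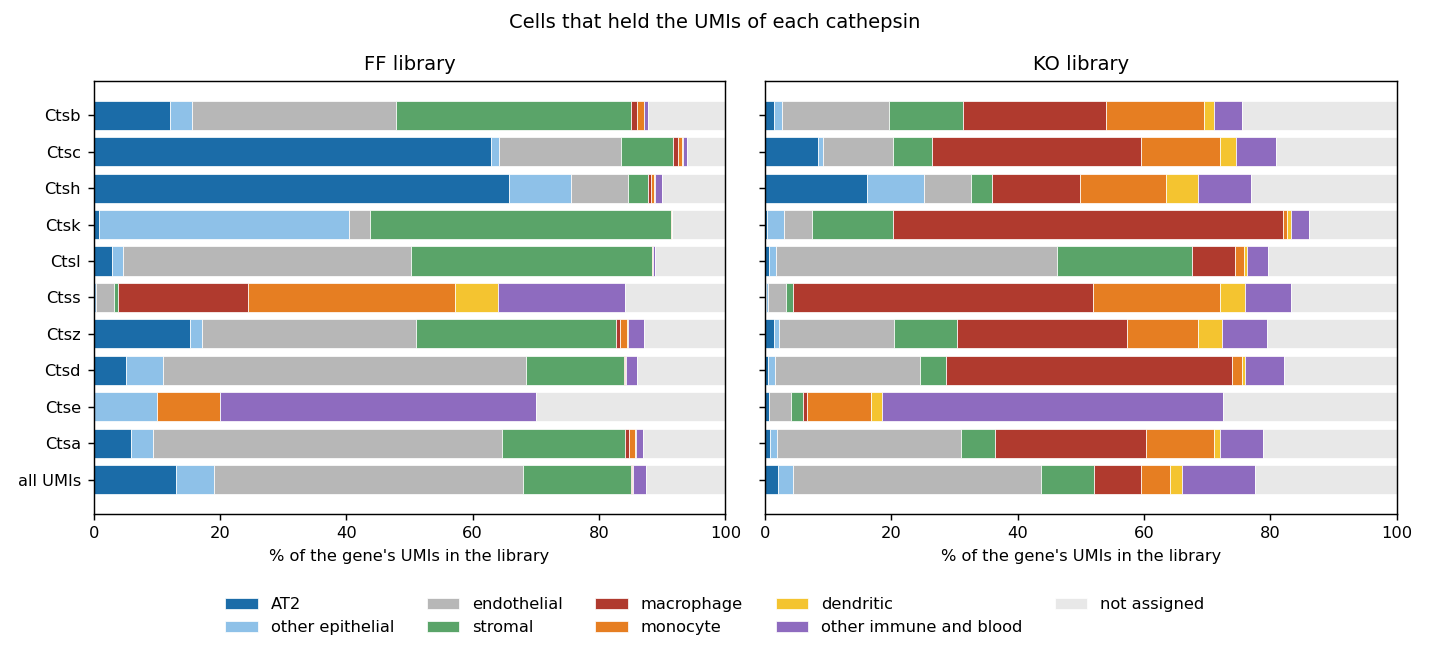
Share of each gene's UMIs by the class of cell that held them, as stacked bars in percent of the gene's UMIs in that library, for the FF (left) and KO (right) libraries, with all UMIs in the last bar. AT2 cells hold 65.8% of Ctsh UMIs on the left and 16.1% on the right, and macrophages 0.134% of Ctsd on the left and 45.2% on the right.

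Stromal cells (fibroblasts, pericytes and smooth muscle) gave 47.6% of Ctsk in the FF and 12.9% in the KO library, 38.2% and 21.4% of Ctsl, and 37.3% and 11.6% of Ctsb. Endothelial cells gave 45.6% and 44.5% of Ctsl. Monocytes gave 32.8% and 20.2% of Ctss, and dendritic cells 6.78% and 3.95%. Dendritic cells gave 4.94% of Ctsh and 3.79% of Ctsz in the KO library, where they held 1.91% of all UMIs. Cells in no class, which passed either no gate or the gates of 2 lineages, held between 6.07% (Ctsc) and 15.9% (Ctss) of a gene's UMIs in the FF library, leaving out Ctse with its 10 UMIs. In the KO library this was between 13.9% (Ctsk) and 27.5% (Ctse). For Ctsh it was 23.0% there, above the 16.1% of AT2 cells.

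Class shares and levels within classes were exchanged between the libraries to see how each moves the total. With the KO shares of UMIs and the FF levels, Ctss came to 297 CPM, and with the FF shares and KO levels to 61.8 CPM, against 331 CPM measured in the KO library. For Ctsh the same values were 180 and 221 CPM, against 141 CPM measured. For Ctsk, the KO shares with FF levels gave 9.22 CPM, below the 16.0 CPM of the FF library. The FF shares with KO levels gave 27.6 CPM, against 52.1 CPM measured in the KO library. The FF levels of the rarer immune classes rest on few cells. The FF alveolar macrophages were 3 cells with 2090 UMIs, 0 of them Ctsk, while this class stood at 482 CPM in the KO library. The exchange therefore cannot divide the Ctsk difference between shares and levels.

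The AT2 class holds cells that kept AT2 markers and passed no gate of another lineage, such as that with S100a8 and S100a9. In these cells, Ctsh was the cathepsin with the highest level in both libraries. None of the members with 50 or more UMIs differed by 2-fold in the summed counts. Ctsh stood at 1176 CPM in the FF library (10515 UMIs) and 1138 CPM in the KO library (1460 UMIs), a log2 ratio of −0.05 (−0.13 to 0.03). Over the 10 alternatives run, this ratio ranged from −0.46 to 0.04, beyond the counting interval. Ctsc stood at 722 and 600 CPM (log2 −0.27, −0.38 to −0.16), and its ratio ranged from −0.79 to −0.17 over the alternatives. The 10 genes together stood at 2505 and 2438 CPM (log2 −0.04, −0.09 to 0.01). Of the 7 members with 50 or more UMIs, 0 were higher by 2-fold, against 2.47% of the genes tested in these cells, and 0 were lower, against 1.20%.

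Among the broadly expressed members, Ctsb stood at 209 and 240 CPM in AT2 cells, Ctsz at 154 and 138 CPM and Ctsl at 87.4 and 91.2 CPM. Ctsd stood at 123 and 151 CPM (log2 0.30, 0.07 to 0.52) and Ctsa at 33.0 and 52.2 CPM (log2 0.66, 0.26 to 1.05). The Ctsa ratio was 1.23 when every cell counted equally, past 2-fold, and 0.45 after thinning. The Ctsd ratio also differed between the alternatives. It was 0.03 among AT2 cells with 3000 or more UMIs, 1.10 when every cell counted equally and 1.24 when every cell was thinned to 1000 UMIs. In the thinned cells, a Ctsd UMI was found in 11.3% (8.49 to 14.6) of 443 FF cells and 22.8% (16.6 to 30.1) of 162 KO cells, with 3 and 43 shallower cells left out. Ctsc went the other way, with a UMI in 48.5% (43.8 to 53.3) and 32.1% (25 to 39.9) of the thinned cells. A Ctsh UMI was found in 60.5% and 54.3%. In the KO library the 10 AT2 cells with the most Ctsh UMIs held 45.3% of them and 19.5% of all UMIs of the class, and in the FF library 8.03% and 2.60%.

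Ctss, Ctsk and Ctse were at or near 0 in FF AT2 cells. Ctss had 0 of 8944805 UMIs there, where 3 counts would make 0.335 CPM, and 23 UMIs (17.9 CPM) in KO AT2 cells. With the FF count raised to 3, the ratio was 53.5 (log2 5.74, 4.01 to 8.12), on fewer than 50 UMIs. Ctsk had 10 UMIs in each library (1.12 and 7.80 CPM). Ctse had 0 UMIs and 1 UMI.

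Ctss, a leukocyte gene, was seen in the KO library in every epithelial, endothelial and stromal class. Over 9 such classes it ranged from 0 to 3.85 CPM in the FF library and from 17.9 to 63.9 CPM in the KO library, with no overlap. Endothelial cells stood at 0.683 and 24.6 CPM (23 and 622 UMIs). Alveolar fibroblasts had 1 and 57 UMIs, a ratio of 175 on the counts as they stand, with no floor and an interval of 30.2 to 7036, and adventitial fibroblasts 3 and 98 UMIs, a ratio of 68.7 (22.8 to 339).

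RNA of some other leukocyte marker genes was also higher in the KO library in these 9 classes, and for some the ranges overlapped. The summed markers below are those of the gates. Cells that passed a leukocyte gate had been left out of these classes, which limits the summed levels. Laptm5, a lysosomal membrane protein of blood cells, ranged from 0 to 2.50 CPM in the FF and from 10.3 to 82.1 CPM in the KO library. The summed neutrophil markers ranged from 1.92 to 11.6 CPM and from 105 to 223 CPM. They include S100a8 and S100a9, which the paper reports as raised in KO AT2 cells, and the source of this RNA was not tested. The interstitial macrophage markers ranged from 0 to 1.67 CPM and from 0 to 28.7 CPM. These overlapped, as did the alveolar macrophage markers (0 to 302 CPM and 22.9 to 317 CPM), the classical monocyte markers (0 to 162 CPM and 8.22 to 198 CPM) and Cd68, a lysosomal protein of macrophages (0 to 5.59 CPM and 1.72 to 22.2 CPM). Within single classes, Cd68 and the classical monocyte markers were higher in the KO library in all 9. The alveolar macrophage markers were lower only in airway secretory cells, at 37.7 and 29.2 CPM. Their highest values were those of ciliated cells, and in endothelial cells they stood at 1.54 and 22.9 CPM. The interstitial macrophage markers were 0 in airway secretory cells of both libraries and higher in the KO library in the other classes. In the KO library the ratio of Ctss to Laptm5 UMIs ranged over the 9 classes from 0.714 in pericytes to 2.33 in airway secretory cells. These ends rest on few counts, 15 and 21 UMIs in pericytes and 14 and 6 UMIs in airway secretory cells. Over all cells the ratio was 0.961. It was 0.958 in AT2 cells, 0.798 in endothelial cells and 1.17 in AT1 cells and in smooth muscle. A Ctss UMI was found in 7.41% of thinned KO AT2 cells and in 13% of thinned KO ciliated cells, with unthinned medians of 1514 and 1617 UMIs. After free RNA was subtracted by scaling the library's profile, 7.33 CPM of Ctss was left in KO AT2 cells, 16.0 CPM in endothelial cells and 37.2 CPM in alveolar fibroblasts. The part of free RNA in the remainder was not tested.

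**Figure D2:**
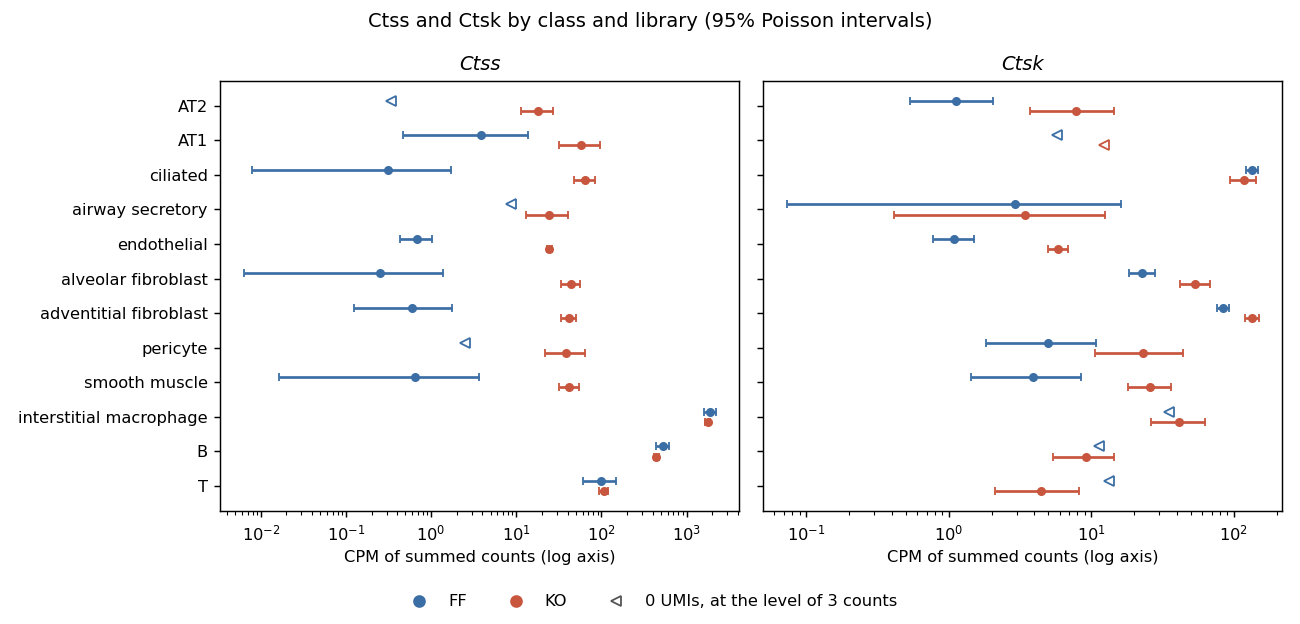
Level of Ctss (left) and Ctsk (right) in 12 classes with at least 20 cells in each library, in CPM of summed counts on a log axis, with 95% Poisson intervals and open triangles at the level of 3 counts where a class had 0 UMIs. Ctss is at 0 to 3.85 CPM in the FF and 17.9 to 63.9 CPM in the KO library in the 9 epithelial, endothelial and stromal classes, while interstitial macrophages lie at 1893 and 1763 CPM.

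Among the other epithelial cells, those passing the AT1 gate had less Ctsl and more Ctsh and Ctsc in the summed counts of the KO library. Ctsh stood at 643 and 1776 CPM (334 and 432 UMIs), Ctsc at 46.2 and 140 CPM (24 and 34 UMIs) and Ctsl at 412 and 206 CPM (214 and 50 UMIs). Of 7 members with 50 or more UMIs, 2 were higher by 2-fold, against 9.23% of genes tested, and 1 was lower, against 11.7%. The class itself differed between the libraries. The summed AT2 markers in it stood at 9875 CPM in the 121 FF cells and 20340 CPM in the 58 KO cells, and the AT1 markers at 27602 and 7025 CPM. Sftpc, 1 of these AT2 markers, went the other way, at 7799 and 1344 CPM. Of the 10 genes that led the class, 3 were AT1 gate markers in the FF and 1 in the KO library. In the KO library 10 cells held 94.4% of the Ctsh UMIs and 52.5% of all UMIs of this class. After thinning, a Ctsh UMI was found in 36.7% (26.1 to 48.3) of 79 FF cells and 29.1% (17.6 to 42.9) of 55 KO cells. The thinned cells held 0.506 and 0.764 Ctsh UMIs on average. The part of AT2 RNA in these ratios was not tested.

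Ctsk was also found in ciliated cells. It stood at 134 CPM in the 200 FF cells (435 UMIs) and at 117 CPM in the 178 KO cells (90 UMIs), a log2 ratio of −0.19 (−0.53 to 0.14). In the FF library a Ctsk UMI was found in 74.0% of ciliated cells, and in KO cells, with a median of 1617 UMIs against 16401, in 25.3%. After thinning, the shares were 16.2% (11.3 to 22.0) and 13% (8.02 to 19.6). Ciliated cells and airway and AT1 cells together gave 39.5% of all Ctsk UMIs in the FF and 2.74% in the KO library. AT1 cells held 0 Ctsk UMIs in both libraries.

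Fibroblasts and smooth muscle had the highest Ctsl levels of all classes with at least 20 cells in both libraries. Adventitial fibroblasts stood at 1194 and 935 CPM (log2 −0.35, −0.42 to −0.28), alveolar fibroblasts at 777 and 647 CPM (log2 −0.26, −0.38 to −0.15) and smooth muscle at 529 and 435 CPM. Neighbours in this order did not have overlapping intervals. Pericytes, also stromal, stood at 330 and 248 CPM, below endothelial cells at 365 and 307 CPM but with overlapping intervals in both libraries. The first 3 levels were lower in the KO library by less than 2-fold. Ctsb stood at 540 and 506 CPM in alveolar and 557 and 520 CPM in adventitial fibroblasts. The log2 ratios of Ctsd, Ctsz and Ctsa in both fibroblast classes lay between −0.14 (Ctsz, adventitial) and 0.06 (Ctsd, alveolar).

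Apart from Ctss, Ctsk differed most in fibroblasts among members with 50 or more UMIs. Ctsk stood at 22.8 and 53.8 CPM in alveolar fibroblasts (91 and 70 UMIs, log2 1.24, 0.77 to 1.71) and at 84.2 and 134 CPM in adventitial fibroblasts (422 and 320 UMIs, log2 0.67, 0.46 to 0.89). Subtracting free RNA left Ctsk at 22.9 and 53.8 CPM in alveolar fibroblasts. The library profiles held Ctsk at 16.0 and 52.1 CPM, near these levels. The subtraction could therefore hardly move them, and it cannot show the part of free RNA. The summed alveolar macrophage markers stood at 2.25 and 34.6 CPM in these cells, and their part in the Ctsk ratio was not tested. The log2 ratio in alveolar fibroblasts ranged from 0.89 to 1.29 over the 10 alternatives run. With Ctss, 2 of 9 members in alveolar fibroblasts were higher by 2-fold, against 1.91% of genes tested, and 0 were lower, against 1.25%. In adventitial fibroblasts 1 of 9, Ctss, was higher, against 1.51%, and 0 were lower, against 0.816%. The 10 genes together stood at 2006 and 1952 CPM in alveolar fibroblasts (log2 −0.04, −0.10 to 0.03).

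Endothelial cells, the largest class with 6481 and 4992 cells, held Ctsd at 369 and 340 CPM and Ctsl at 365 and 307 CPM. Ctsh stood at 42.5 and 27.0 CPM there, beside Sftpc, an AT2 gene, at 875 and 162 CPM. Subtracting free RNA left Ctsh at 38.3 and 23.8 CPM, and the part of AT2 RNA in it was not tested. Ctsk stood at 1.10 and 5.84 CPM, beside the summed alveolar macrophage markers at 1.54 and 22.9 CPM, whose part in the Ctsk ratio was not tested. Ctsk and Ctss made 2 of 9 members higher by 2-fold, against 4.23% of genes tested, and 0 were lower, against 1.27%.

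**Figure D3:**
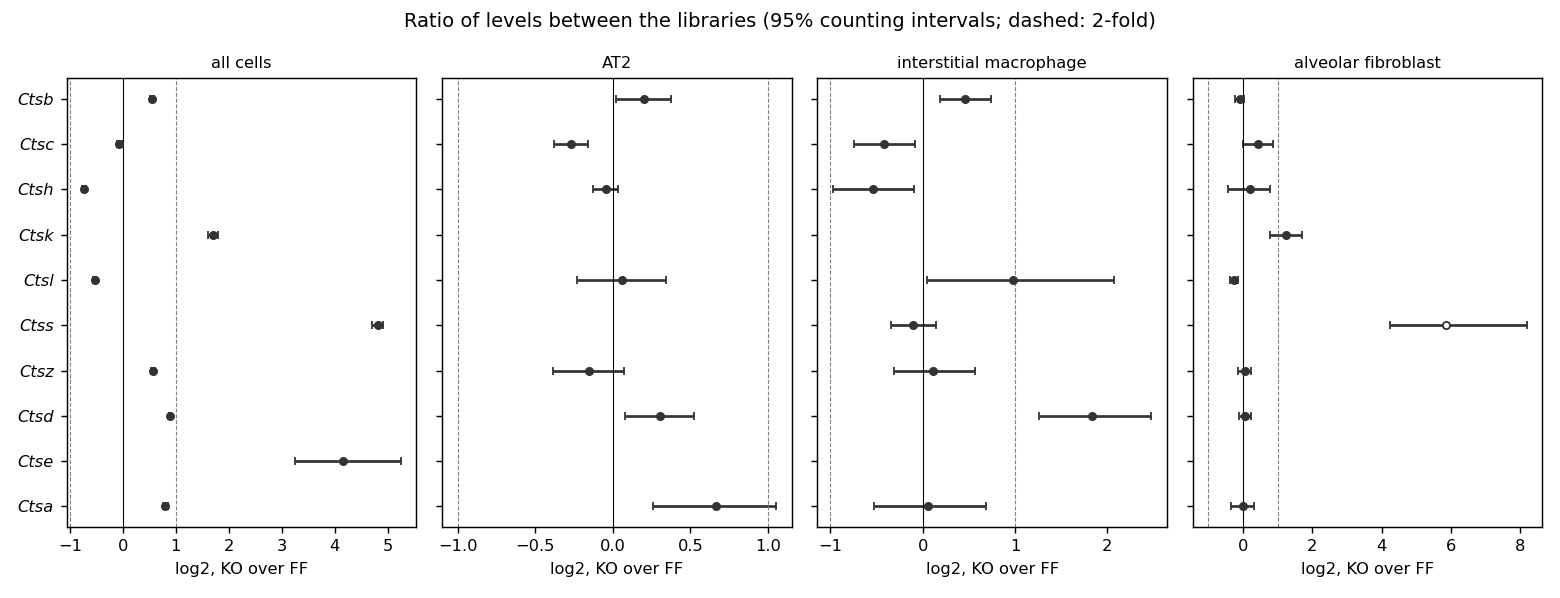
Log2 ratio of each gene's level, KO over FF, over all cells and in 3 classes, for genes with 50 or more UMIs, with 95% counting intervals, dashed lines at 2-fold, a scale of its own in each panel and an open point where an FF count under 3 was raised to 3. Over all cells Ctss lies at 4.81, and in AT2 cells all 7 plotted genes lie between −0.27 and 0.66.

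Alveolar macrophages were the richest cathepsin source of the KO library. The 10 genes together stood at 9620 CPM (9527 to 9713) in these 433 cells, against 7310 CPM in interstitial macrophages and 2175 CPM over all KO cells. Ctsd alone stood at 3862 CPM (3803 to 3922) and made up 40.1% of the cathepsin UMIs of the class. Ctss stood at 2161 CPM, Ctsb at 882 CPM, Ctsz at 714 CPM, Ctsc at 613 CPM, Ctsk at 482 CPM and Ctsa at 420 CPM. Ctsl and Ctsh stood at 245 and 240 CPM, and Ctse had 0 UMIs, where 3 counts would make 0.705 CPM.

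These levels were spread over the cells. After thinning to 1000 UMIs, with 411 cells kept and 22 left out, a Ctsd UMI was found in 90.0% (86.7 to 92.7), a Ctss UMI in 80.0% (75.9 to 83.8) and a Ctsk UMI in 28.2% (23.9 to 32.8). The median thinned cell held 8 cathepsin UMIs, with quartiles of 6 and 11, and every cell held at least 1. In thinned KO AT2 cells the median was 2, and 12.3% of cells held none. Ctsk was less even than Ctsd, with 26.7% of its UMIs in 10 cells, against 15.5% for Ctsd. The 3 FF cells of this class held 14 cathepsin UMIs, among them 5 of Ctss, 4 of Ctsd and 0 of Ctsk, and 3 counts would make 1435 CPM there.

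**Figure D4:**
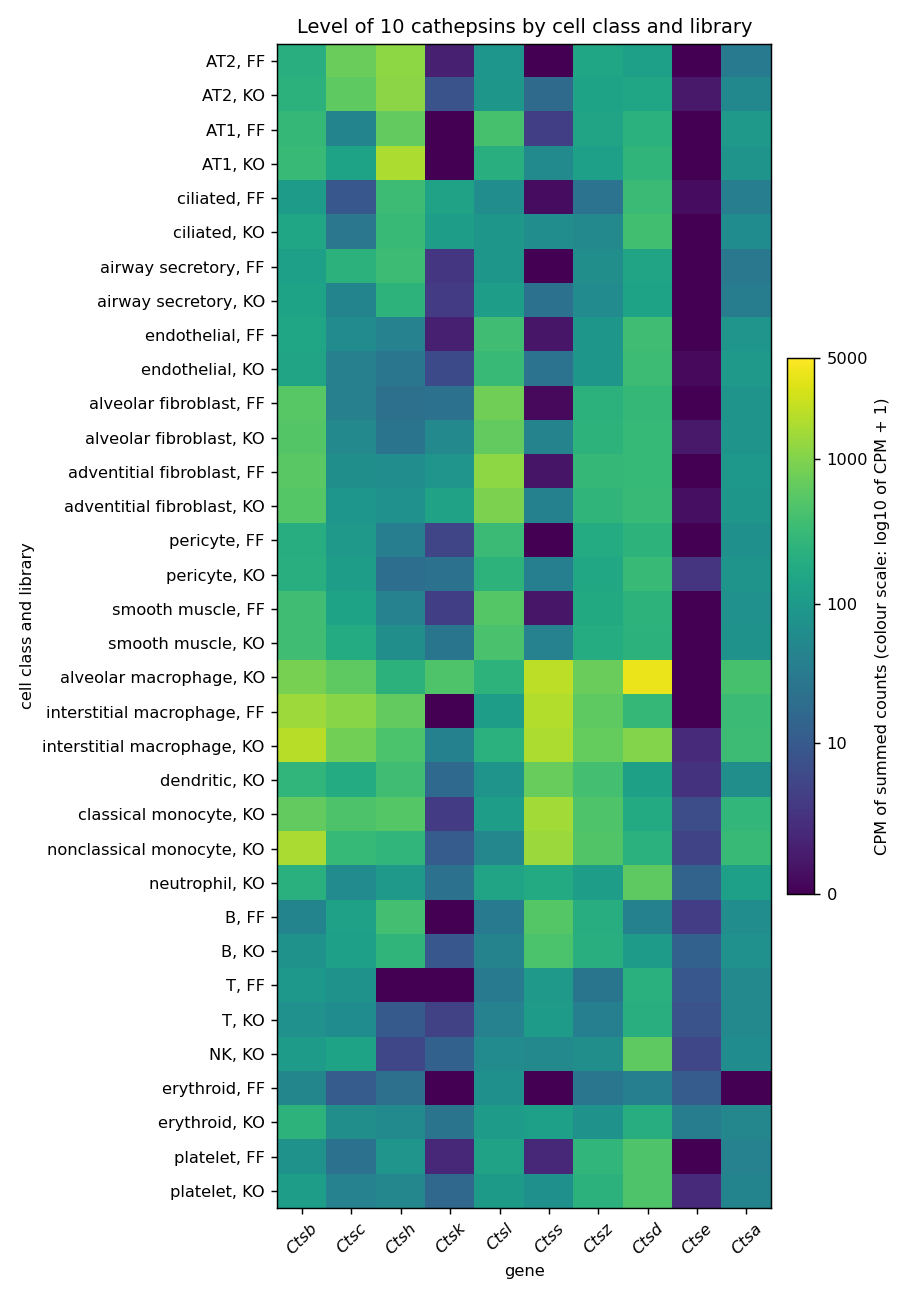
Level of the 10 genes (columns) in each class and library with at least 20 cells (rows), as CPM of summed counts on a log10 colour scale of CPM plus 1. KO alveolar macrophages stand out at 3862 CPM for Ctsd and 482 CPM for Ctsk, AT2 cells of both libraries at 1176 and 1138 CPM for Ctsh, and adventitial fibroblasts at 1194 and 935 CPM for Ctsl.

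Interstitial macrophages held Ctss, Ctsb and Ctsc in both libraries, and Ctsd at a higher level in the KO library. Ctss stood at 1893 and 1763 CPM (log2 −0.10, −0.34 to 0.15), Ctsb at 1437 and 1971 CPM (log2 0.46, 0.18 to 0.74), Ctsc at 1098 and 822 CPM and Ctsz at 608 and 657 CPM. Ctsd stood at 292 and 1041 CPM (25 and 551 UMIs, log2 1.83, 1.26 to 2.47). The 25 FF Ctsd UMIs lay in 10 or fewer of 23 cells, and 65.3% of the KO UMIs lay in 10 of 128 cells. The summed alveolar macrophage markers stood at 0 CPM in the FF and 376 CPM in the KO cells of this class, against 3176 CPM in KO alveolar macrophages, and their part in the Ctsd ratio was not tested. Of 8 members with 50 or more UMIs, 1 was higher by 2-fold, against 19.1% of genes tested, and 0 were lower, against 2.71%. The summed level was 6415 and 7310 CPM (log2 0.19, 0.06 to 0.32). Scaling by the median of gene ratios moved every ratio in this class up by 0.47, which put Ctsl past 2-fold as well, at 1.45, and turned the sign of Ctss to 0.36 and of Ctsc to 0.05. This scaling took only genes with 50 or more UMIs in each library, with a median log2 ratio of −0.47. Over all 1958 genes tested in this class the median was 0.18, so the shift depends on the genes taken. After thinning, Ctsz came to 1.49 and Ctsl to 0.03, and thinning kept 21 FF cells.

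Dendritic cells of the KO library, 80 cells with a median of 15932 UMIs, held Ctss most of the 10 genes. Ctss stood at 687 CPM (641 to 735), Ctsz, a carboxypeptidase, at 388 CPM, Ctsh at 365 CPM, Ctsb at 274 CPM, Ctsc at 189 CPM and Ctsd at 127 CPM. After thinning, a Ctss UMI was found in 56.3% (44.7 to 67.3) of these cells, a Ctsz UMI in 26.3% and a Ctsk UMI in 1.25%. The 4 FF dendritic cells held 55 Ctss UMIs (1412 CPM, 1063 to 1838) and 29 Ctsh UMIs (744 CPM, 499 to 1069). These cells are too few for a comparison.

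Monocytes lay between macrophages and dendritic cells in the summed level, at 4222 CPM in classical and 4762 CPM in nonclassical monocytes against 2198 CPM in dendritic cells. In the KO library, Ctss stood at 1514 CPM in 189 classical and 1373 CPM in 156 nonclassical monocytes, and Ctsb at 653 and 1707 CPM. Ctsd was low in both, at 184 and 230 CPM. The 10 FF cells of each class stood at 1487 and 1731 CPM for Ctss and 545 and 1746 CPM for Ctsb.

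**Figure D5:**
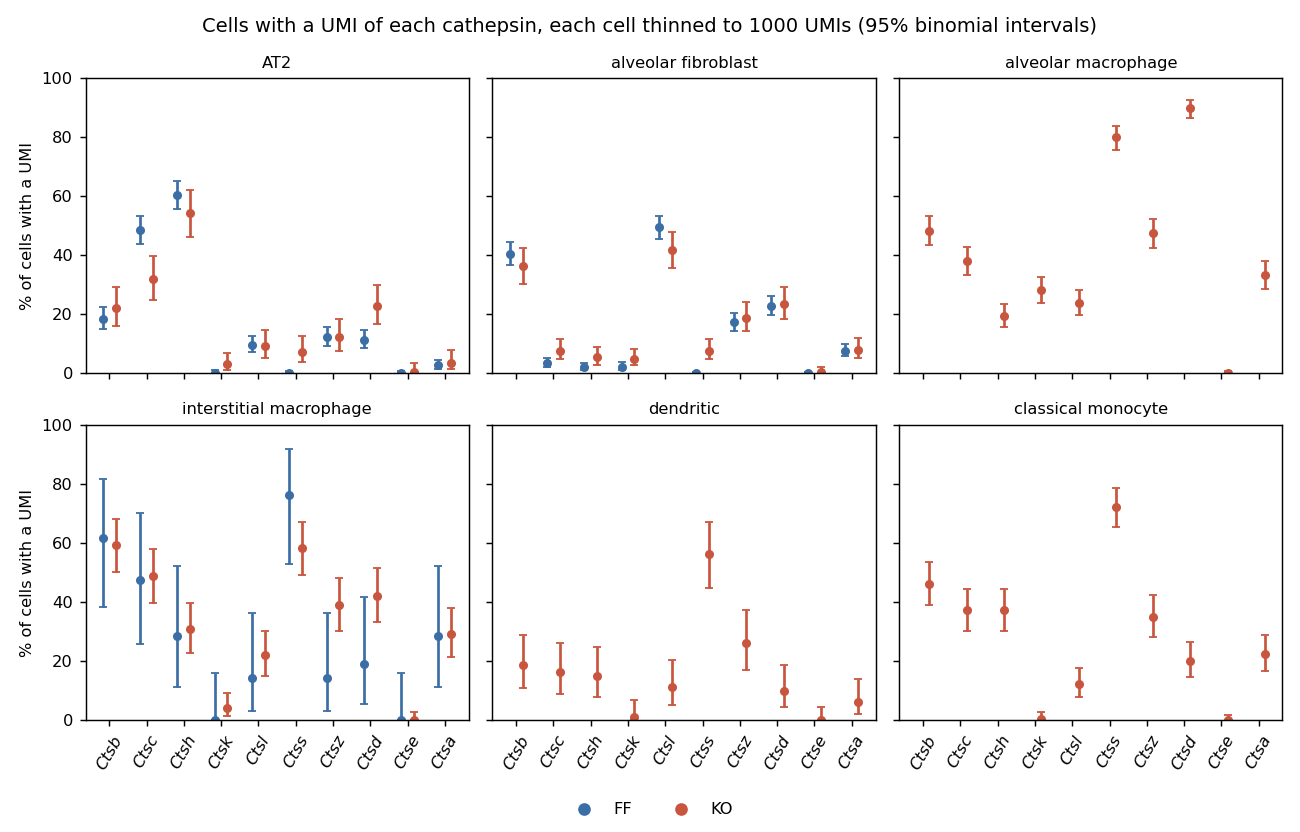
Share of cells with a UMI of each gene after every cell was thinned to 1000 UMIs, with 95% binomial intervals, for classes and libraries with at least 20 thinned cells. In KO alveolar macrophages Ctsd is found in 90.0% and Ctss in 80.0% of cells, and in AT2 cells Ctsh in 60.5% (FF) and 54.3% (KO).

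Other blood classes held cathepsins as well. B cells stood at 524 and 443 CPM for Ctss and 385 and 265 CPM for Ctsh. Platelets stood at 479 and 477 CPM for Ctsd. Neutrophils of the KO library, 685 cells, held Ctsd at 600 CPM, Ctsb at 225 CPM, Ctss at 180 CPM and Ctsc at 60.1 CPM. Natural killer cells of the KO library held Ctsd at 611 CPM. Ctse had its highest levels in KO erythroid cells (34.8 CPM on 18 UMIs), neutrophils (14.2 CPM on 25 UMIs) and B cells (13.2 CPM on 26 UMIs), with overlapping intervals, and 17 of the 18 erythroid UMIs lay in 10 cells.

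Genes related to the lysosome or to cathepsins were counted from 8 lists with 54 genes in all. Not all encode lysosomal proteins. The lists take in cathepsin inhibitors, transcription factors and 5 genes of antigen presentation and surfactant (Cd74, H2-Aa, H2-Ab1, Sftpb and Sftpc). These 5 gave 3 of the higher and 2 of the lower genes over all cells. Over all cells 11 of 52 compared were higher by 2-fold, against 9.52% of all genes tested, and 4 were lower, against 10.0%. Among those higher were the cathepsin inhibitors Cst7 and Stfa1, the lymphocyte protease Ctsw, the sphingolipid activator Psap (355 and 746 CPM), Cd68 and Laptm5. The lower ones were Napsa, an aspartic protease that also processes surfactant protein B (362 and 138 CPM), Npc2, Sftpb and Sftpc. In AT2 cells 1 of 45 was higher, Psap (57.9 and 119 CPM), against 2.47% of genes tested, and 1 was lower, Ctsf on 62 and 4 UMIs, against 1.20%. Napsa stood at 2551 and 2487 CPM there, Npc2 at 3860 and 3671 CPM, and Lamp1, a lysosomal membrane protein, at 466 and 467 CPM. In interstitial macrophages 3 of 33 were higher, all subunits of the proton pump (Atp6v0d1, Atp6v1a and Atp6v1b2, on 2 to 6 FF UMIs), against 19.1% of genes tested, and 2 were lower, against 2.71%. These were Cst3, which encodes the inhibitor cystatin C (7560 and 3410 CPM), and Sftpc. In alveolar fibroblasts 4 of 46 were higher (Laptm5, Cd74, H2-Aa and H2-Ab1), against 1.91% of genes tested, and 1, Sftpc, was lower, against 1.25%. Over all cells, Sftpc stood at 27047 and 3766 CPM and Laptm5 at 17.4 and 344 CPM. The part of free RNA in the ratios of interstitial macrophages and alveolar fibroblasts was not tested.

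Over 34 sums of a class in a library, each gene's level was set beside those of 8834 genes, as log2 of CPM plus 10. The sums share libraries, depth and free RNA, so the correlations are descriptive. Ctss was most like Cybb, a subunit of the phagocyte oxidase (Pearson r = 0.94), and Ctsl most like Ikbip (r = 0.93). Ctsz was most like Hexa (r = 0.90), Ctsb most like Grn (r = 0.85) and Ctsh most like Napsa (r = 0.78). Among the cathepsins themselves, Ctsa and Ctsb were most alike (r = 0.80), and the neighbours Ctsk and Ctss had r = 0.17.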

How the data were processed

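The authors aligned droplet 3′ reads to mm10 with Cell Ranger and deposited UMI counts per gene and barcode, without normalization. The submitters' processing notes name version 6.1.1 and the file header 5.0.0. Cells under 200 genes or over 20% mitochondrial UMIs were removed, and no doublet caller was run. A class needed 3 UMIs from 2 genes of its marker panel and 2 times the mean panel share (1 time for endothelium), and cells of 2 lineages were left out. Ratios between the libraries used genes with 50 or more summed counts, with counts under 3 raised to 3 and no p-value, since there was 1 library per genotype. The ratio code was tested on simulated data. Python 3.11.15, numpy 2.4.6, scipy 1.17.1 and pandas 2.3.3 were used. Genes were named as members, from the fixed lists, or as the 3 most like a member. The members and lists were chosen with earlier results of these data known. Alternatives in scaling, gates, cell filter, depth, free RNA and total are given in the closing section.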

Additional observations from a re-analysis of the deposited data

Results flagged for a closer look

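Ctsc was past 2-fold in opposite directions in different classes, and this difference between classes was not tested. It was higher in the KO library in cells passing the AT1 gate (log2 1.60, 24 and 34 UMIs) and in ciliated cells (log2 1.64, 30 and 22 UMIs). It was lower in airway secretory cells (log2 −2.37, 83 and 27 UMIs), at 241 CPM in 23 FF cells and 46.4 CPM in 21 KO cells. Sftpc moved in the same direction in the secretory class, at 60358 and 53.3 CPM, and its part in the result was not tested.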

How the results depend on the processing

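No paired analysis was possible because each genotype had 1 library, and no replicate could be left out. The summed level of the 10 genes over all cells had a log2 ratio of 0.49, and 0.57 with median of ratios scaling, 0.47 with cells of 3000 UMIs or more, 0.51 after thinning, 0.52 as a mean of each cell's CPM and 0.46 with abundant genes out of the total. In AT2 cells it was −0.04, and −0.12, −0.14, −0.16 and −0.11 with median of ratios scaling, thinning, the mean of each cell's CPM and abundant genes out. In interstitial macrophages it was 0.19, and 0.66 with median of ratios scaling. In alveolar fibroblasts it was −0.04, and −0.13 with cells of several lineages kept and 0.0641 after thinning. The cause was not tested for any of these. The number of members past 2-fold in AT2 cells was 0, and 3 without the minimum of 50 counts, 1 after thinning and 3 as a mean of each cell's CPM. Without the minimum, 1 of the 3 was Ctse, on 0 UMIs and 1 UMI. Both counts were raised to 3, so its ratio is only that of the class totals. In interstitial macrophages the number was 1, and 2 under median of ratios scaling, no minimum, thinning and the mean of each cell's CPM. With no minimum, the added member was again Ctse, on 0 UMIs and 1 UMI. In alveolar fibroblasts it was 2, and 1 with gates of 6 or 2 UMIs, cells of 3000 UMIs or more or free RNA subtracted, and 0 after thinning. The 3 members over all cells became 2 after thinning, and were 3 in the other alternatives run. Where a minimum was set, the 50 counts were required anew, so a member could drop out on counts alone. The share of all genes past 2-fold was not computed under the alternatives, so these counts show nothing particular to the members. In alveolar fibroblasts the log2 ratio of Ctss ranged from 4.48 to 7.03 and that of Ctsk from 0.89 to 1.29. Over all cells the lowest log2 ratios of Ctsk, Ctss and Ctse were 1.57, 4.41 and 3.22. Of 340 ratios of single members under an alternative, 274 stayed within the counting interval and 0 of those past 2-fold changed sign. The 340 include Ctse ratios in which both counts were raised to 3. Dendritic cells could not be compared under any gate, with 3 to 16 FF cells, and interstitial macrophages had no value under the stricter cell filter or with cells of 3000 UMIs or more, with 19 and 10 FF cells. Depth differed between the libraries in AT2 cells, with medians of 20781 and 1514 UMIs, and in ciliated cells, with 16401 and 1617.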
